A study of Homo sapiens with 47 samples.

Results

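The SOXB and POU class III transcription factors were followed as 8 genes chosen by name, of 58051 genes listed in each library: the SOXB1 activators SOX1, SOX2 and SOX3, the SOXB2 repressors SOX14 and SOX21, and the POU class III genes POU3F1, POU3F2 and POU3F3. All 8 were found in all 47 libraries, and the measure is bulk polyA RNA-seq. The libraries came from WA09 (H9), an established human embryonic stem cell line, so every value describes a single line grown in culture. Undifferentiated cells at t0 were collected the day after seeding. All later cultures were kept in N2B27 without vitamin A and with CHIR-99021 (a WNT agonist), rhFGF2, AGN193109 (an inverse agonist of retinoic acid receptors) and Y-27632 (a ROCK inhibitor). They were collected after 36 h, when the labels call them neuromesodermal progenitor (NMP)-like, and at passages P1 to P10, labelled as pre-neural progenitors (PNPs) and neural crest (NC). Each of the 12 time points had 3 libraries, r1 to r3, from 3 independent differentiations, except P9, where r1 and r2 were analysed. At P5 and P8 each differentiation was also separated with TrypLE into an epithelial (EPI) and a mesenchymal (MES) fraction, 12 libraries in all. A fraction was enriched by selective detachment and not sorted on a marker.

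SOXB1 proteins bind DNA through an HMG box and as a rule act beside a partner, often a POU factor, on adjacent sites. SOX2 with POU5F1 (OCT4) maintains pluripotent cells, and SOX2 with POU class III factors such as POU3F2 (BRN2) acts in neural progenitors. SOX2 and SOX3 are also expressed in the caudal region of the embryo where NMPs lie, SOX1 marks the committed neural plate, and the SOXB2 factors SOX14 and SOX21 carry repressor domains and counteract SOXB1 activity during neurogenesis. POU3F1 (OCT6) is known from the primed epiblast and from Schwann cells.

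Expected counts per library summed to between 13029491 and 64082859, with a median of 47292229. Values below are normalized counts, that is, read counts per gene divided by a size factor of the library, unless TPM (a level scaled to transcript length and to the library) is named. A gene is said to have passed a comparison when edgeR's quasi-likelihood test, with differentiations as blocks, put its FDR below 0.01, it differed 2-fold or more, and its normalized counts in the libraries compared averaged 100 or more. All 8 genes are single-exon genes of the GRCh38 annotation. SOX2 lies at chr3:181711924-181714436 on the plus strand, inside the noncoding gene SOX2-OT of the same strand, so reads of the pair may have been divided between them. SOX1 and SOX21 lie on chromosome 13, at chr13:112067647-112070488 on the plus strand and chr13:94709622-94712399 on the minus strand, SOX3 at chrX:140502985-140505116 on the minus strand and SOX14 at chr3:137764284-137766338 on the plus strand. POU3F1 lies at chr1:38044611-38046794 on the minus strand, POU3F2 at chr6:98834592-98839470 on the plus strand and POU3F3 at chr2:104855511-104858574 on the plus strand. Pluripotency genes marked t0 as labelled, with POU5F1 at 58630, 56840 and 56000 normalized counts in r1, r2 and r3. General epithelial markers were low in both fractions beside t0: the summed level of EPCAM, CDH1, ESRP1, CLDN6 and CRB3 was 42950 to 53340 at t0 and 947.3 at most in a fraction library. Between the fractions the sum was higher in EPI in all 3 pairs of P5 (199, 247.2 and 139.5 in EPI of r1, r2 and r3, 135.9, 171.1 and 34.83 in MES), while the P8 fractions overlapped (216 to 947.3 in EPI, 159.6 to 731.6 in MES).

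The first question is how SOX2 changed over the culture. SOX2 was the most abundant of the 8 genes at t0, with 11540, 11670 and 12590 normalized counts in r1, r2 and r3, a close group (11930 ± 569.9, SD, n = 3). After 36 h, r1 still held 12990, whereas r2 held 1435 and r3 held 267.4. At P1 the values were 5134, 179.8 and 195, and at P2 they were 2085, 1337 and 2329. The differentiations r2 and r3 thus reached their lowest early level at P1, 64.9-fold and 64.6-fold below their own t0, whereas r1 was still at its t0 level at 36 h and was lowest at P2, 5.54-fold below t0. At P1, P2 and P3 all libraries lay below all 3 of t0, whereas at 36 h r1 overlapped them. Groups that did not overlap were common, 53.6% of the 21750 genes tested at P2 against t0. Because these are bulk cultures, fewer SOX2-expressing cells and less SOX2 RNA per cell cannot be told apart here or in any later comparison.

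SOX2 was higher from P3 to P8 than at P2 in every differentiation, and in r2 and r3 it was already higher at P2 than at P1. It measured 4402, 4635 and 3462 in r1, r2 and r3 at P3 and 10350, 14220 and 6245 at P4. From P5 to P7 the libraries lay between 7783 and 18000. The highest levels were 18020 in r1 at P8, 18000 in r2 at P7 and 9751 in r3 at P6, which were 8.64-fold, 100.1-fold and 50.01-fold above the early minimum of the same differentiation. In r1 and r2 the highest level was also 1.56-fold and 1.54-fold above t0, while r3 stayed at 0.774 of its t0 level. At P8 the values had spread to 18020, 8157 and 5882.

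The late passages fell apart by library. At P9 SOX2 was at 288.6 in r1 and 367.6 in r2, 62.4-fold and 22.2-fold below P8 of the same differentiation. At P10 it was at 31 in r2 and 44.83 in r3, 263.1-fold and 131.2-fold below P8, but at 12400 in r1. The library labelled P10 r1 therefore lay within the range of P8 (5882 to 18020), whereas P9 of the same differentiation lay with the low libraries. The summed level of 10 NC and mesenchyme markers set the libraries low in SOX2 apart from P10 r1, though not from all of P8. It was 64010 and 71910 in the P9 libraries and 57400 and 67930 in P10 r2 and r3, against 21480 in P10 r1 and 17630 to 70890 at P8. Of the 10, TFAP2A (log2 fold change 4.76, FDR 0.0098) and TWIST1 (3.89, FDR 0.0098), both NC factors, rose at P9 against P8, where 0.887% of all genes passed as higher. Both calls were lost without r3 and with only the compared libraries in the fit, where no gene passed. They were also lost without r2, which leaves a single P9 library. None of the 10 was at or under 3 normalized counts in all libraries of P8, P9 or P10. The sum of 5 NMP markers ran the other way, with 547.3 and 1059 at P9 and 212.2 and 188.5 in P10 r2 and r3, against 10340 in P10 r1 and 3070 to 17220 at P8. The sum of 5 neuron markers was 20840 in P9 r2 and 22810 and 23530 in P10 r2 and r3, against 11220 in P9 r1, 12120 in P10 r1 and 7522 to 10790 at P8. Of the 4 endoderm markers SOX17, FOXA2 and GATA4 were at or under 3 normalized counts in all libraries of P8, P9 and P10. The sum of the 4, mostly CXCR4, was 65.54 in P9 r1, 3634 in P9 r2, 5948 in P10 r2 and 154.6 in P10 r3. In P10 r1 it was 741.6, and at P8 359.1 to 870.7, so the libraries low in SOX2 lay on both sides of P10 r1. The epithelial marker sum was 133.4 and 145.2 at P9 and 129.9 and 130.8 in P10 r2 and r3. In P10 r1 it was 505, and at P8 322.9 to 911. The sum of 5 mesoderm markers was 56.35 and 191.9 at P9 and 54.84 and 82.34 in P10 r2 and r3. In P10 r1 it was 253.3, and at P8 69.53 to 465.5. NC, NMP, epithelial and mesoderm sums thus separated all 4 libraries low in SOX2 from P10 r1, the NMP sum mostly through CDX2. The neuron sum separated only some of these libraries. The part of these sets in the SOX2 values was not tested.

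**Figure D1:**
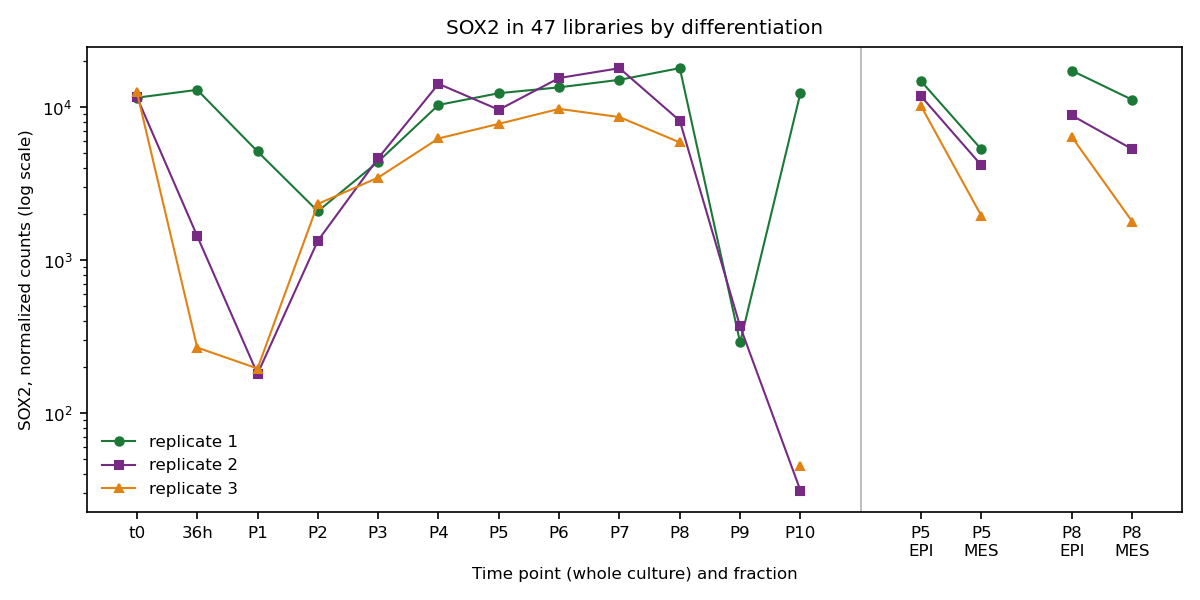
SOX2 in normalized counts on a log axis, by time point of the whole culture on the left and by fraction on the right, with 1 line or pair of points for each differentiation. The early minimum is at P1 in replicates 2 and 3 (179.8 and 195) and at P2 in replicate 1 (2085), and at P10 replicate 1 (12400) lies far above replicates 2 and 3 (31 and 44.83).

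In the fit of the 35 whole cultures, SOX2 did not pass at 36 h against t0 (log2 fold change -2.33, SE 1.27, FDR 0.26), at P2 against t0 (-2.61, SE 1.23, FDR 0.091) or at P5 against P2 (2.25, SE 1.22, FDR 0.27). It did not differ detectably between P8 and t0 (-0.51, SE 1.17, FDR 0.74) or between P8 and P5 (-0.15, SE 1.16, FDR 0.99), with standard errors wide enough to hold a change of more than the 2-fold threshold. P9 against P8 gave -5.05 (SE 1.66, FDR 0.054) and P10 against P8 gave -2.29 (SE 1.27, FDR 0.38). Among 11 time points each compared with t0, SOX2 passed at P9 alone (-5.56, SE 1.71, FDR 0.0088), where 9.41% of all genes tested passed as lower. None of the steps from a time point to the next passed for SOX2, and few genes passed the steps between 36 h and P8: 0.492% as higher and 0.699% as lower at P1 against 36 h, 0.023% and 0.0046% at P2 against P1, 0.0092% and 0% at P3 against P2, and 0% at each later step up to P8.

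Whether SOX2 was called depended on the libraries and settings used, differentiation r1 among them. Without r1, edgeR's test called SOX2 lower at 36 h against t0 (-4.01, FDR 0.00067), P2 against t0 (-2.64, FDR 0.0016), P9 against P8 (-4.48, FDR 0.0052) and P10 against P8 (-7.45, FDR 3e-05). The library P1 r1 lay nearer to 36 h than to P1 r2 and r3 in its pluripotency markers, with a sum of 45900 against 31460 to 84100 at 36 h and 4767 and 4655 in P1 r2 and r3, and had a mesoderm sum of 250.6 against 13630 and 22640. The cause was not tested. Without P1 r1 and P10 r1, which stand apart from their groups, P2 against t0 (-2.60, FDR 0.0033), P9 against P8 (-5.06, FDR 0.00085) and P10 against P8 (-7.73, FDR 3.6e-05) were called as well. Both settings leave out libraries in view of their values or their differentiation. Without r1 the groups hold 2 libraries each and P9 holds 1, r2, so the P9 values then rest on a single library that is assumed to vary like the other groups. P9 against t0 was called under both (-5.29, FDR 0.00024, with the single P9 library, and -5.37, FDR 4.9e-05) but not without the replicate block (-5.15, FDR 0.023), without r2 (-6.37, FDR 0.08, again with 1 P9 library), without r3 (-5.06, FDR 0.027) or without P4 r3 and P6 r3, the shallowest libraries (-5.6, FDR 0.013). With only the compared libraries in the fit, P2 against t0 was called too (-2.63, FDR 0.0022).

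**Figure D2:**
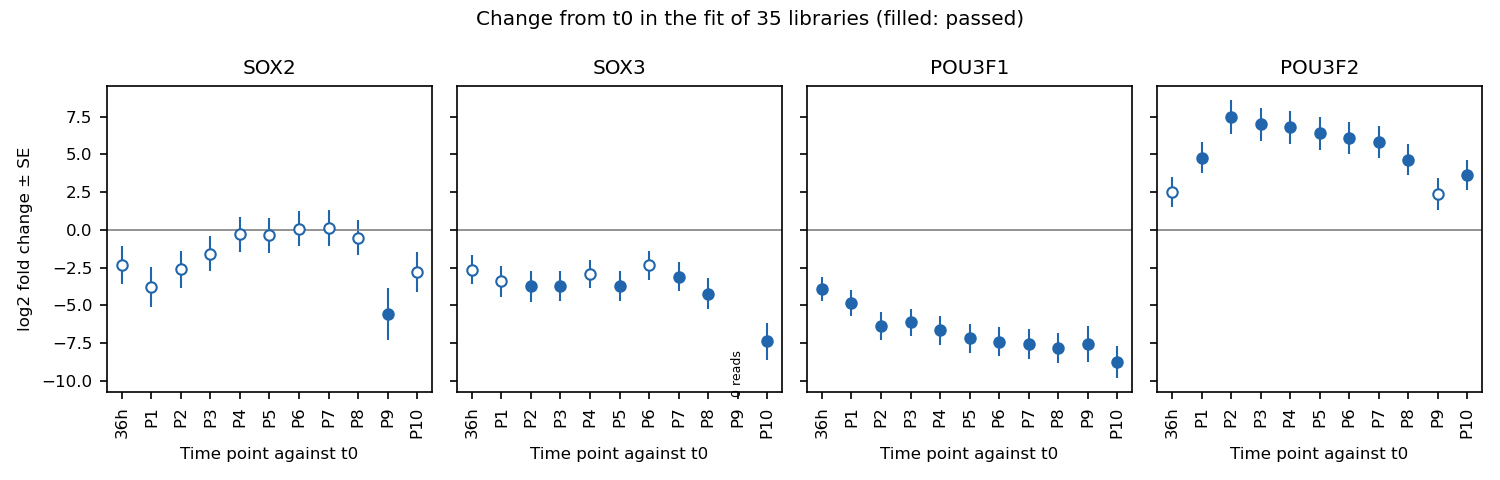
Log2 fold change against t0 with its standard error for SOX2, SOX3, POU3F1 and POU3F2 at each of 11 later time points in the fit of 35 whole-culture libraries, filled where the gene passed. POU3F1 passed at all 11 time points, POU3F2 at 9, SOX3 at 7 and SOX2 at P9 alone, and SOX3 at P9 is left out because both libraries had 0 reads.

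Among the 5 members with a mean of at least 100, SOX2 and the repressor gene SOX21 had the most similar courses, and the bases before their starts are shown so that both promoters can be read beside each other. Each line holds the 250 bases before the RefSeq transcription start on GRCh38.p14, 5′ to 3′ on the strand of the gene, chr3:181711675-181711924 on the plus strand for SOX2 and chr13:94712546-94712795 on the minus strand for SOX21.
SOX2: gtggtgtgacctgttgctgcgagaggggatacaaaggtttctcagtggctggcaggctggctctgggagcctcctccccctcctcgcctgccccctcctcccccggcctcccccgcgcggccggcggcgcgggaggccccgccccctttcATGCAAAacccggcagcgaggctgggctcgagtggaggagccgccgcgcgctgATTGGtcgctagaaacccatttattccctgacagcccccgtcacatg
SOX21: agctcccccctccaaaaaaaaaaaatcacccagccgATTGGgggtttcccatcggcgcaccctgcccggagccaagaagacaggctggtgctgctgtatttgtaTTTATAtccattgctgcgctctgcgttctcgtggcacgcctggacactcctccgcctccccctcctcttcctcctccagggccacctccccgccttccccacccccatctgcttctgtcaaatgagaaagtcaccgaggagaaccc
Capitals mark exact matches, on either strand, to any of 6 letter strings chosen after the sequences were seen: the POU octamer ATGCAAAT, its first 7 bases ATGCAAA, the SOX-type string ACAATG, the LEF/TCF-type string CTTTGAT, the CCAAT box CCAAT and the TATA box TATAAA. The SOX2 window holds ATGCAAA from 100 bases before the start and ATTGG, the CCAAT box of the opposite strand, from 47 bases before it. The SOX21 window holds ATTGG and TTTATA. Of 35116 promoters of this length, 3.94% held ATGCAAA, 1.63% the full octamer, 9.29% ACAATG, 2.26% CTTTGAT, 32% CCAAT and 10.7% TATAAA. Of the 7 members with a RefSeq promoter in the table, 6 held a CCAAT box and 1, SOX2, held ATGCAAA. A match describes letters in this window and not binding.

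SOX3, the next most abundant SOXB1 gene of these cells, was lower than at t0 at P2 and P8. At t0 it measured 694.5, 1152 and 706.3 normalized counts in r1, r2 and r3, and at 36 h 278.8, 220.5 and 59.14, with no overlap between the groups, as for 39% of all genes tested. At P2 it was at 357.2, 39.09 and 23.27, and at P8 at 223.5, 34.61 and 17.77. The differentiation r1 held the highest SOX3 level at each of these later times. Both P9 libraries and P10 r2 and r3 had 0 SOX3 reads, at least 201.3-fold and 378.2-fold below t0 of the same differentiation at P9 and at least 322.1-fold and 257.3-fold at P10 when 3 reads are taken as the least the depth can show in a library, and P10 r1 held 34.28. SOX3 fell at P2 against t0 (log2 fold change -3.74, SE 1, FDR 0.0044), where 6.94% of all genes passed as lower, and at P8 against t0 (-4.22, SE 1.02, FDR 0.0015), where 7.75% did. It passed at 7 of 11 time points against t0, and 36 h against t0 did not pass (-2.63, SE 0.94, FDR 0.069). Without the replicate block SOX3 no longer passed at P2 (-2.57, FDR 0.12) or P8 (-3.16, FDR 0.053) against t0, nor without r2 (-3.01, FDR 0.12, and -3.61, FDR 0.062), without r3 (-3.08, FDR 0.083, and -3.61, FDR 0.04) or with only the compared libraries (-3.55, FDR 0.05, and -3.89, FDR 0.018).

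SOX1, the SOXB1 gene of the committed neural plate, stayed low and was highest in r1. At t0 it measured 18.69, 3.108 and 10.32 normalized counts in r1, r2 and r3, and at P2 102.4, 32.73 and 52.35. Every P2 library lay above every t0 library, but groups did not overlap for 53.6% of all genes tested. The log2 ratios of SOX1 were 2.39, 3.04 and 2.24 within a differentiation, with 1 added, although P2 against t0 did not pass (2.77, SE 0.89, FDR 0.014). Its highest level was 225.6 normalized counts, in r1 at P4, where r2 and r3 had 29.56 and 24.69. At P3 the values were 210.2, 8.428 and 5.496, and at P5 90.84, 5.439 and 3.05. SOX1 was highest in r1 at the 11 time points with 3 libraries, whereas P9 held only 2 reads in r1 and 1 in r2, and at P5 r1 was 29.8-fold above the lowest differentiation. SOX1 passed at none of the 11 time points against t0, and its mean stayed under the 100-count minimum in each of the 7 whole-culture comparisons of the design. In P5 EPI it was at 130.4, 8.714 and 4.387 and in P5 MES at 111.6, 0.9724 and 1.935, again highest in r1.

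SOX21, a repressor gene that SOXB1 factors are known to induce, was low where SOX2 was low early in the culture. It measured 72.67, 160.6 and 92.05 normalized counts at t0 and 137.5 in r1 at 36 h, where r2 and r3 had 0 reads, at least 46.39-fold and 36.83-fold below their t0. At P1 r2 and r3 again had 0 reads and r1 had 49.31, and at P2 the levels were 4.763, 10.91 and 14.54. The libraries in which SOX2 was still high at 36 h and P1 were thus the libraries that held SOX21. At P4 SOX21 was at 424.8, 600.4 and 156.4, and at P6 at 654, 274.2 and 232.4. At P8 the differentiations parted: r1 held 706, while r2 and r3 held 5.191 and 6.272 although their SOX2 was at 8157 and 5882. SOX21 passed none of the whole-culture comparisons (36 h against t0 -3.16, SE 1.47, FDR 0.17; P2 against t0 -3.52, SE 1.53, FDR 0.068; P5 against P2 3.9, SE 1.55, FDR 0.12). Without r1 the FDR of SOX21 was 0.00035 at 36 h against t0, 0.0021 at P2 against t0 (-3.24) and 0.0066 at P5 against P2 (3.33), and none of these counted as passed because the mean was under 100. SOX14, the other SOXB2 gene, was near the limit of detection, with 65.09, 13.85 and 4.998 normalized counts at 36 h, at most 6.163 in any other library, and a mean far under the minimum of 100 (36 h against t0 4.8, SE 1.29, FDR 0.021).

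**Figure D3:**
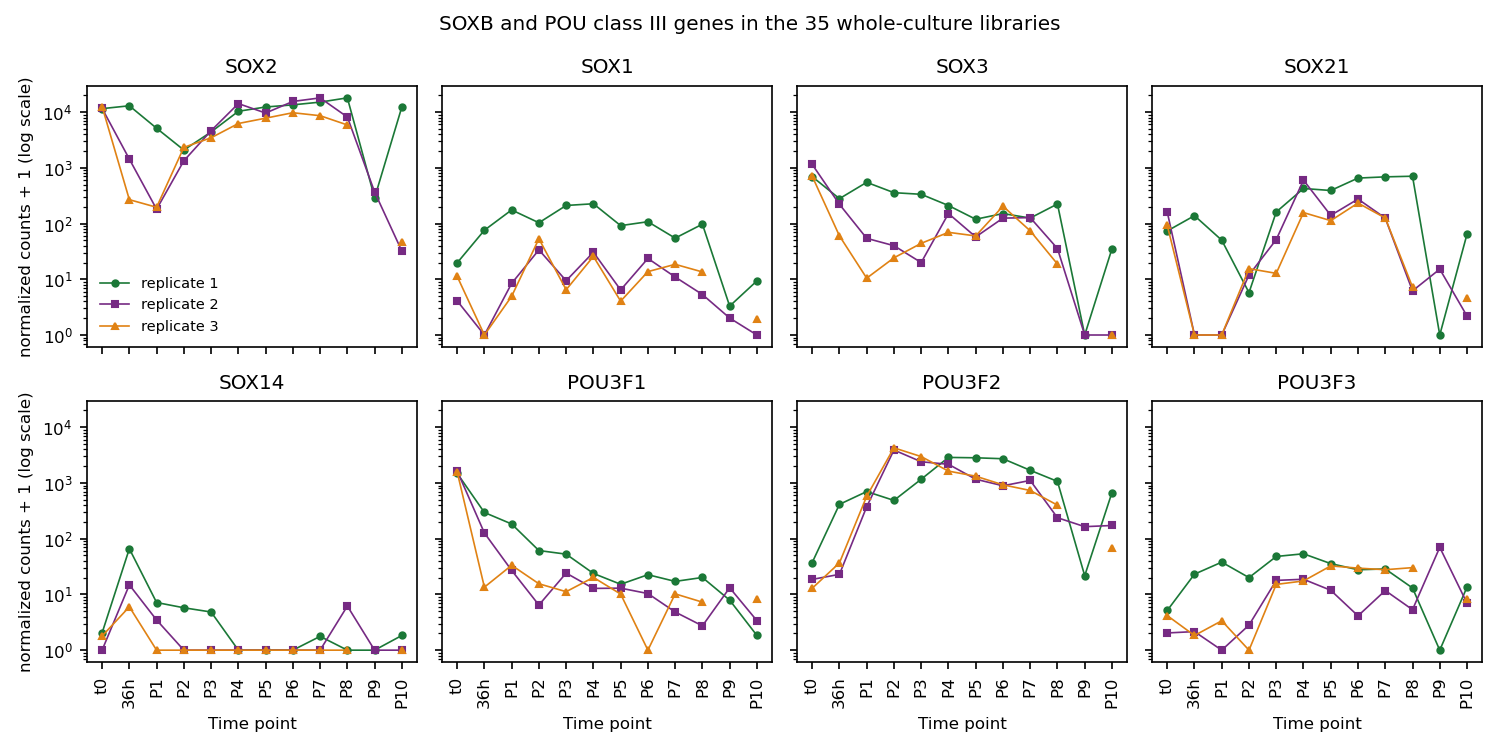
Normalized counts plus 1 on a log axis for all 8 members over the 12 whole-culture time points, with 1 line for each differentiation and a gap at P9 of replicate 3. SOX21 had no reads in replicates 2 and 3 at 36 h and P1, where SOX2 was at 1435 or less, POU3F1 was highest at t0 and POU3F2 at P2 or P4, and SOX1 is highest in replicate 1 at the 11 time points with 3 libraries.

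Across the 16 group means of log2 normalized counts (with 1 added), SOX2 correlated with SOX21 (Pearson's r = 0.85) and SOX3 (0.74), and hardly with POU3F1 (0.09) or POU3F2 (0.36). These coefficients are descriptions over 16 points that share differentiations and, at P5 and P8, cultures. The 5 genes most like SOX2 over the same means were CABP1 (r = 0.952), FAM234B (0.947), FUT9 (0.942), PHLPP1 (0.94) and ARHGEF26 (0.937), among 13296 other genes with a mean of at least 100. Only 1 of the 5, FUT9, was among the 5 most alike over the 47 single libraries. The gene most like SOX21 was SOX21-AS1 (0.982), which lies beside it on the opposite strand. SOX21-AS1 measured 65.4 to 74.6 at t0, 2.908 to 8.732 at P2 and 105.7 to 315.2 at P5. The strand setting of the counting is not given in the sources used here, so reads of the pair may not be fully told apart.

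The POU class III genes changed places. POU3F1 measured 1492, 1653 and 1591 normalized counts at t0, in r1, r2 and r3, and 294.7, 125.8 and 12.5 at 36 h. These groups did not overlap, as for 39% of all genes tested. At P2 it was at 60.33, 5.454 and 14.54, and from P3 to P10 no whole culture exceeded 51.83. Unlike SOX2 it was low in all 3 differentiations at 36 h, r1 included, and it did not return. POU3F1 fell against t0 at 36 h (log2 fold change -3.92, SE 0.81, FDR 0.0024), P2 (-6.35, SE 0.92, FDR 8.7e-06) and P8 (-7.8, SE 0.99, FDR 9.5e-07), and it passed at all 11 time points. The share of all genes that passed as lower at those time points was 1.37% at 36 h, 5.37% at P1, 6.94% at P2, 7.83% at P3, 7.78% at P4, 7.85% at P5, 7.91% at P6, 7.9% at P7, 7.75% at P8, 9.41% at P9 and 8.79% at P10. At 36 h it was the 1 member of 8 that passed, where 2.71% of all genes tested passed and 1.37% passed as lower. The 36 h call was lost without the replicate block (-3.45, FDR 0.023), without r2 (-4.13, FDR 0.098), without r3 (-3.18, FDR 0.076) and with only the compared libraries in the fit (-4.02, FDR 0.05). No setting that was tried ended the calls at P2 and P8, apart from a filter that dropped POU3F1 because some libraries held under 10 reads.

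POU3F2 took the opposite course. It measured 36.33, 17.61 and 11.9 normalized counts at t0 and 412.6, 21.93 and 35.82 at 36 h. At P1 it was at 700.6, 373.2 and 576.3. At P2 r2 and r3 reached their highest levels, 3907 and 4273, while r1 was at 485.8. In r1 the highest level was 2876, at P4. The differentiation r1, last to reach its early SOX2 minimum, was thus also last to reach its highest POU3F2 level. Levels were 1067, 237 and 399.3 at P8, 20.7 and 163.5 at P9 and 671.3, 171.7 and 67.7 at P10. POU3F2 rose at P2 against t0 (log2 fold change 7.48, SE 1.13, FDR 1.5e-05), where 5.89% of all genes passed as higher, and was higher at P8 (4.65, SE 1.02, FDR 0.00058), where 7.66% did, and it passed at 9 of 11 time points, all but 36 h (2.51, SE 0.98, FDR 0.098) and P9 (2.37, SE 1.07, FDR 0.065). The share of all genes that passed as higher against t0 was 1.33% at 36 h, 3.42% at P1, 5.89% at P2, 5.8% at P3, 6.22% at P4, 6.44% at P5, 6.68% at P6, 7.26% at P7, 7.66% at P8, 10.3% at P9 and 9.5% at P10. For POU3F2, P5 against P2 and P8 against P5 did not pass (-1.08, SE 0.84, FDR 0.48, and -1.75, SE 0.85, FDR 0.38). Without r1, P5 against P2 was called lower (-1.69, FDR 0.0091). The P2 call was lost with only the compared libraries in the fit (6.71, FDR 0.013), and the P8 call without r2 (4.99, FDR 0.014) or r3 (4.51, FDR 0.024). POU3F3 stayed at or under 69.04 normalized counts in every library, its level in P9 r2, and passed no comparison.

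**Figure D4:**
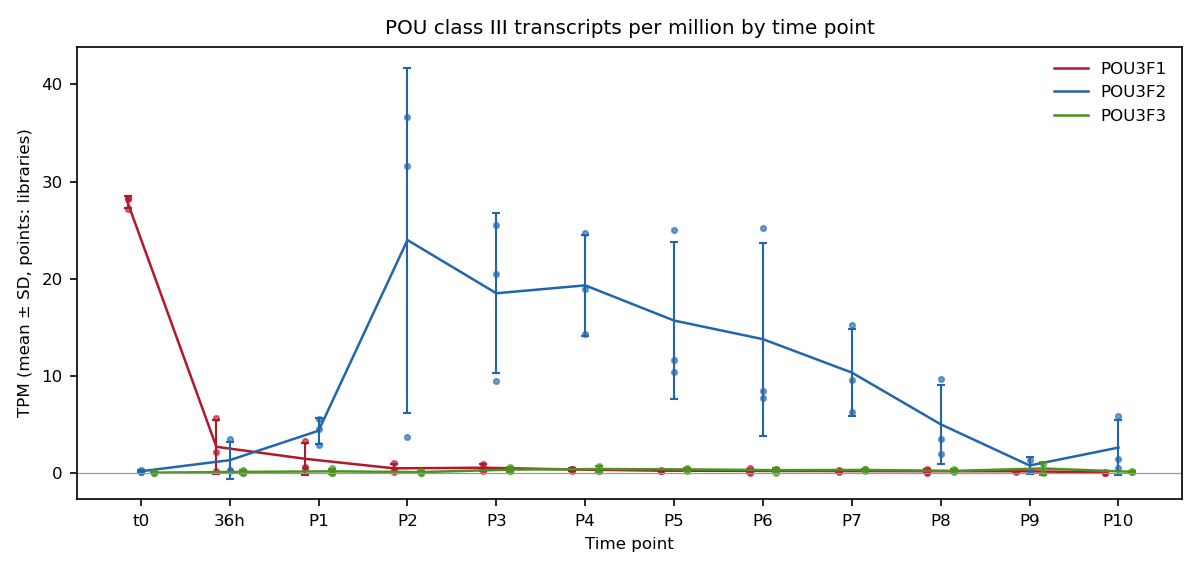
TPM of POU3F1, POU3F2 and POU3F3 by time point, with lines through the means, error bars of 1 SD and a point for each library (3 per time point, 2 at P9). POU3F1 is at 27.15 to 28.35 TPM at t0 and at or under 5.7 afterwards, whereas POU3F2 is at 0.09 to 0.29 TPM at t0 and reaches 36.66 in 1 library at P2.

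The promoters of this exchanging pair are shown for the same reason, with the same 6 strings in capitals: chr1:38046794-38047043 on the minus strand and chr6:98834324-98834573 on the plus strand, each the 250 bases before the RefSeq start on GRCh38.p14.
POU3F1: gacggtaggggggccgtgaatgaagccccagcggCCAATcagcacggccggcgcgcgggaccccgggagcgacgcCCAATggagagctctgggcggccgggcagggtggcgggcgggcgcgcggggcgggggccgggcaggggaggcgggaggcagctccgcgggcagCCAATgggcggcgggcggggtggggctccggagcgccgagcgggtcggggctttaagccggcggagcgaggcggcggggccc
POU3F2: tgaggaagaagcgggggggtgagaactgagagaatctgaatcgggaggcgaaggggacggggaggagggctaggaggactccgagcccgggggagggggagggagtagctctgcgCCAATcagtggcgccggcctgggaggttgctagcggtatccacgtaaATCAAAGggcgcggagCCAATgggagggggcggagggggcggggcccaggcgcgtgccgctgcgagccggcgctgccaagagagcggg
The POU3F1 window holds 3 CCAAT boxes on the strand of the gene. The POU3F2 window holds CCAAT boxes from 135 and 72 bases before the start and, between them, ATCAAAG from 88 bases before it, which is CTTTGAT read on the opposite strand. Of the 7 members searched, 1 held that string, which 2.26% of all promoters held.

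Both P2 and P8 had 3 of 8 members past the thresholds against t0, with POU3F1 and SOX3 lower and POU3F2 higher, beside 12.8% of all genes tested at P2 and 15.4% at P8. The median log2 fold change of the 8 members was -0.92 at P2 and 0.22 at P8, against 0.02 over all genes in both. P5 against P2 and P8 against P5 had no member past the thresholds by edgeR or by DESeq2, with 2 and 1 of 8 at an unadjusted p under 0.05, and 1.37% and 0.0092% of all genes passed. In edgeR's test 5109 of all genes at P5 against P2 and 2892 at P8 against P5 had an unadjusted p under 0.05. P9 against P8 had no member past the thresholds by edgeR, where 1.22% of all genes passed. There 4 members and 5710 of all genes had an unadjusted p under 0.05. DESeq2 passed 1 member, SOX2 (-5.02, FDR 0.0021), beside 3.77% of all genes. P10 against P8 had none by either tool, and 0.0874% of all genes passed by edgeR. In edgeR's test 2 members had an unadjusted p under 0.05, beside 3571 of all genes.

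TPM allows levels of different members to be compared. SOX2 made up 92.14% of the summed SOXB1 TPM at t0, 86.93% at 36 h and 83.95% at P1, and 97.61% or more from P4 on (means of 2 or 3 libraries). By these means SOX3 was the next largest of the 3 genes from t0 to P8, with 7.787% at t0 and 13.81% at P1. Among the single libraries up to P8, SOX1 lay above SOX3 in P2 r3 (1.9% against 1.16%) and in P5 MES r1 (1.8% against 1.29%). At P9 and P10 both SOX3 and SOX1 were at or near 0 reads outside P10 r1, where SOX3 (41 reads) lay above SOX1 (10 reads), so their order at P9 and in P10 r2 and r3 could not be given. The summed SOXB1 level averaged 198.1 TPM at t0, 180.3 at P4, 241.9 at P7 and 5.45 at P9. At P1 it was 93.33 TPM in r1 but 3.84 and 3.25 in r2 and r3, and at P2 it was 38.81, 22.49 and 40.62, so the sum was higher at P2 than at P1 in r2 and r3 and lower in r1. Of the summed TPM of POU3F1, POU3F2 and POU3F3, which leaves out the class III gene POU3F4 (0.79 TPM at t0, above POU3F2 and POU3F3 there), POU3F1 made up 99.27% at t0 and 65.15% at 36 h, whereas POU3F2 made up 78.05% at P1 and 96.28% at P4. The level summed over the same 3 genes was 28.09 TPM at t0, 4.117 at 36 h, 24.53 at P2 and 5.4 at P8. Thus SOX2 and POU3F2 were both present at P4 to P7, when POU5F1, at 1568.79 to 1749.35 TPM at t0, was at 0.65, 0.82 and 2.03 TPM in the P4 libraries. At P2 POU5F1 was at 23.68 TPM in r1 and at 0.39 and 0.51 in r2 and r3. No test was made on these shares.

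The next question is how the members differed between the epithelial and mesenchymal fractions of the same culture. SOX2 was lower in MES than in EPI in all 6 pairs. At P5 it measured 14800, 11790 and 10160 in EPI and 5296, 4164 and 1943 in MES of r1, r2 and r3, with no overlap, as for 31.1% of 18885 genes tested. At P8 it measured 17340, 8828 and 6378 in EPI and 11180, 5315 and 1786 in MES, so the groups overlapped although each MES library was below its own EPI. Log2 ratios of MES to EPI were -1.48, -1.5 and -2.39 at P5 and -0.63, -0.73 and -1.84 at P8. SOX2 was thus detected in every MES library, at 1786 or more.

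The SOXB2 gene SOX21 followed SOX2 in the fractions of P5. It measured 457.6, 188.5 and 121.9 in P5 EPI and 130.5, 49.59 and 30.96 in P5 MES, log2 ratios of -1.8, -1.91 and -1.94. At P8 only r1 held much SOX21, 757.6 in EPI and 368.9 in MES, while r2 had 5.131 and 3.686 and r3 had 10.97 and 1.071. SOX3 measured 125.5, 100.6 and 68.43 in P5 EPI and 59.42, 18.48 and 21.29 in P5 MES. POU3F2 differed less between fractions, with 2973, 1362 and 1647 in P5 EPI and 2315, 799.3 and 731.5 in P5 MES, and the P8 fractions overlapped (986.4, 224.8 and 454 in EPI, 727.3, 226.7 and 327.9 in MES).

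With the replicate number as a block shared by both passages, edgeR passed none of the 18885 genes (0%) at P5 MES against EPI, although 4894 had an unadjusted p under 0.05, 3 of 7 members among them, and SOX2 had a log2 fold change of -1.82 (SE 0.33, FDR 0.022). DESeq2 with the same block passed 674 genes and 1 of 7 members tested, SOX2 (-1.84, FDR 1.1e-06). A fit chosen after seeing the data, with each culture as its own block, passed 305 genes (1.62%), 175 of them lower in MES (0.927%), and 2 of 7 members, SOX2 (-1.77, SE 0.27, FDR 0.0092) and SOX21 (-1.88, SE 0.22, FDR 0.0054). In that fit SOX3 gave -1.67 (SE 0.27, FDR 0.01, mean under 100) and POU3F2 -0.75 (SE 0.16, FDR 0.02). Over 14 alternatives the FDR of SOX2 ran from 1.1e-06 to 0.43 and its log2 fold change from -2 to -1.48. At P8 no gene and no member passed in either edgeR fit (0%); SOX2 gave -0.99 (SE 0.32, FDR 0.32) with the shared block and -1.05 (SE 0.27, FDR 0.12) with the culture block, 1 member of 7 and 2261 genes had an unadjusted p under 0.05 with the shared block, and DESeq2 passed 55 genes and no member. The difference between the 2 fraction effects was not detectable for SOX2 (interaction 0.83, SE 0.45, FDR 0.83) or any other member. In the shared-block fit 0 of 7 members and 1152 of 18885 genes had an unadjusted p under 0.05, and DESeq2 passed no member. In the culture-block fit SOX3 had an unadjusted p of 0.03 (interaction 1.05, SE 0.39, FDR 0.36).

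**Figure D5:**
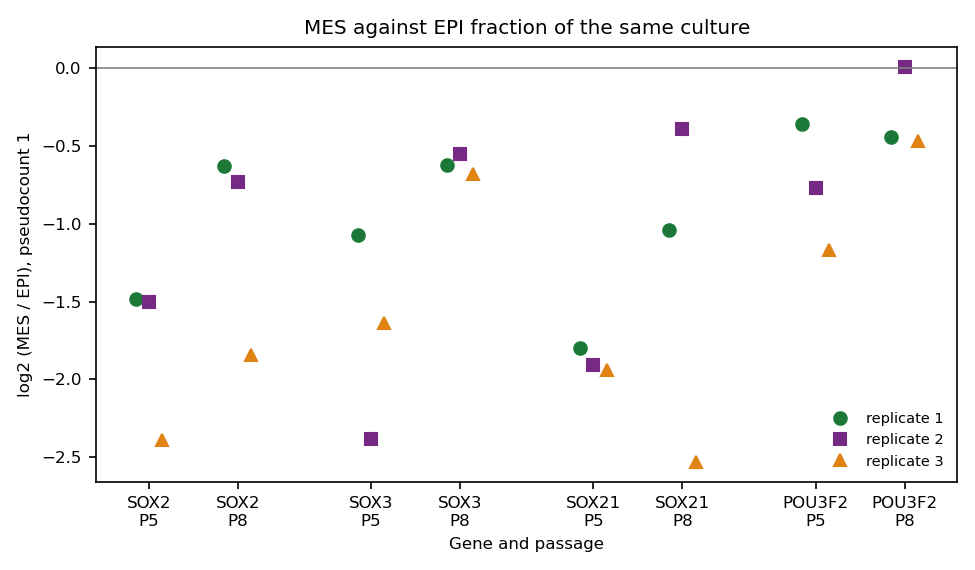
Log2 ratio of normalized counts, MES over EPI of the same culture with a pseudocount of 1, for SOX2, SOX3, SOX21 and POU3F2 at P5 and P8, with 1 point for each differentiation. All points lie below 0 except POU3F2 in replicate 2 at P8 (0.01), and SOX21 is at -1.8 to -1.94 in the 3 cultures of P5.

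Markers of NC and mesenchyme moved with the fractions. Their summed level over 10 genes was 33930 to 49450 in P5 MES and 11610 to 26010 in P5 EPI, and 4 of 10 were higher in MES with the culture block, where 0.688% of all genes passed as higher: SOX10, SOX9, SNAI1 and SNAI2, with a median log2 fold change of 1.77 over the list against 0 over all genes. SOX10, an NC gene, averaged 676 in P5 MES and 72.05 in P5 EPI, and none of the 10 was at or under 3 normalized counts throughout either fraction. At P8 the sums overlapped, 30060 to 87590 in MES and 15580 to 66380 in EPI. Of 10 neural progenitor genes, DLL1 (-1.69) and PROM1 (-1.2) were lower in P5 MES with the culture block and none passed as higher, with a list median of -0.37. NES (0.67, FDR 0.0067, under the 2-fold threshold) and VIM (0.76, FDR 0.051) had values of the other sign. NKX1-2 (-1.72) was the 1 of 10 NMP and pre-neural genes that passed. The summed NMP markers were also lower in P5 MES (9573, 8001 and 2781 in r1, r2 and r3, against 23120, 17450 and 14190 in EPI), with a list median of -1.3 and most of the sum from CDX2. The sum of the neuron markers was lower in P5 MES (6527, 5716 and 3232 against 11740, 8299 and 7630), mostly through TUBB3 (-0.98, FDR 0.01), while DCX (0.93), ISL1 (0.44), STMN2 (0.22) and ELAVL3 (0.15) had values of the other sign, none of the 5 passed, and the list median was 0.22. The pluripotency markers were mixed too. DPPA4 passed as higher in P5 MES (1.33, SE 0.16, FDR 0.0055) and carried a higher sum (2020, 1371 and 2520 against 938.1, 636.9 and 1283), whereas POU5F1 (-0.76), NANOG (-0.55) and TDGF1 (-1.77) had values of the other sign and the median of the 4 tested was -0.65. The part of these markers in the SOX2 difference was not tested.

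Between passages of the same fraction, POU3F2 was the 1 member of 7 that passed. In EPI it went from 2973, 1362 and 1647 at P5 to 986.4, 224.8 and 454 at P8 and fell (log2 fold change -2.02, SE 0.22, FDR 0.0071), where 0.259% of genes passed and 0.0318% passed as lower. In MES it fell as well (-1.59, SE 0.22, FDR 0.008), where 0.699% of genes passed and 0.116% passed as lower. Both P8 groups lay below the P5 groups without overlap, which held for 26.1% and 26.5% of genes tested. The EPI call was lost without the replicate block (FDR 0.15), with all 47 libraries in a fit (FDR 0.14), with only the compared libraries (FDR 0.081) and without r2 (FDR 0.18) or r3 (FDR 0.083), and the MES call under the same settings (FDR 0.18, 0.24, 0.054, 0.12 and 0.061) and without r1 (FDR 0.023). The log2 fold changes themselves stayed between -2.24 and -1.75 in EPI and between -1.76 and -1.46 in MES over 13 alternatives, and the cause of the lost calls was not tested. Between P5 and P8 EPI the summed NC markers went from 11610, 18920 and 26010 to 15580, 39940 and 66380 in r1, r2 and r3, and the NMP markers, mostly CDX2, from 23120, 17450 and 14190 to 16550, 7612 and 4967. In MES the NC sum was higher at P8 in r3 and lower in r1 and r2, and the NMP sum was higher in r1 and lower in r2 and r3. The pluripotency sum was lower at P8 in every differentiation of both fractions. It went from 938.1, 636.9 and 1283 to 324, 117 and 410.9 in EPI. In MES it went from 2020, 1371 and 2520 to 758.6, 204.5 and 651.4. The epithelial sum was higher at P8 in every differentiation, at 422.1, 947.3 and 216 in EPI and 660.6, 731.6 and 159.6 in MES. The neuron sum was higher at P8 in r3 of both fractions and in r2 of MES, and lower otherwise. The part of these markers in the POU3F2 values was not tested. SOX2 gave -0.36 (SE 0.32, FDR 0.48) in EPI and 0.48 (SE 0.32, FDR 0.36) in MES.

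The other genes of the network were counted on 5 lists. Of 10 NMP and pre-neural partners and opponents of SOX2, 7 rose at 36 h against t0, where 1.33% of all genes passed as higher, with a median log2 fold change of 7.94 over the list against 0 over all genes. They were TBXT (11.26), the mesoderm factor that opposes SOX2 in NMPs, MSGN1, CDX1, CDX2, FGF8, SP5 and SP8 (3.28, the smallest of the 7). TBXT measured 27920 and 27660 normalized counts in 36 h r2 and r3, the libraries low in SOX2, and 3290 in r1. At P2, where 5.89% of all genes passed as higher, 7 of 10 did so again, with SP8 no longer among them and TBX6, which represses SOX2 in paraxial mesoderm, in its place (4.35, SE 1.26, FDR 0.0072). At P8 3 of 10 were still higher than at t0, beside 7.66% of all genes, TBXT (5.2), CDX2 (9.21) and SP5 (6.51). The mesoderm markers TBX6, MSGN1, MEOX1, TCF15 and FOXC2 summed to 352.4, 3236 and 16250 in r1, r2 and r3 at 36 h and to 250.6, 13630 and 22640 at P1. Of the endoderm markers SOX17, FOXA2, GATA4 and CXCR4, SOX17 had no reads in these libraries, and the sums of 238.3, 18620 and 24610 at P1 were nearly all CXCR4 in r2 and r3, a chemokine receptor also expressed in mesoderm. The mesoderm sum and CXCR4 were highest in libraries low in SOX2 at these times. At P2 and P3 this was not so. At P2 r1 held the highest mesoderm sum (9380 against 5179 and 6529) and the highest endoderm sum (13710 against 5862 and 2449). At P3 it held the highest mesoderm sum (18170 against 632.2 and 1098) and the highest CXCR4 (17020 against 2566 and 2457). Both times its SOX2 (2085 and 4402) lay between those of r2 and r3. The part of these markers in the SOX2 values was not tested.

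Of 10 pluripotency genes, known targets or partners of OCT4 and SOX2 among them, none passed at 36 h by edgeR, although 5 had an unadjusted p under 0.05, among them PRDM14 (-3.51, SE 0.9, FDR 0.013) and, in the other direction, FGF4 (5.95, SE 1.55, FDR 0.013). Of all 21750 genes in the same test at 36 h against t0, 5677 had an unadjusted p under 0.05. The median log2 fold change of the list was -1.03. Of the same 10, 6 fell at P2 and 6 at P8 against t0, beside 6.94% and 7.75% of all genes, with medians of -5.73 and -8.89. At P2 POU5F1 had a log2 fold change of -9.15 (SE 1.37, FDR 1.3e-05), TDGF1 of -11.94, NANOG of -11.69 and ZFP42, the smallest of the 6, of -2.41. POU5F1 stayed at or under 65.85 normalized counts in every whole culture from P3 on, through the passages in which SOX2 was high again. DPPA4 was still at 1986, 721.1 and 1992 in r1, r2 and r3 at P4, against 34860, 33370 and 34690 at t0, and at 288.8, 78.73 and 407.7 at P8. Of 10 neural progenitor genes, 2 rose at 36 h against t0, 3 at P2 and 4 at P8, beside 1.33%, 5.89% and 7.66% of all genes, with medians of 0.23, 1.09 and 1.37. The 4 at P8 were NES (1.04, SE 0.27, FDR 0.0031), CDH2 (2.47), VIM (2.83) and GLI3 (2.9), of which the cadherin CDH2 and the intermediate filament VIM are also expressed in mesenchyme. NES fell at P9 against P8 (-1.43, SE 0.32, FDR 0.0087), where 0.331% of all genes passed as lower. That call was lost without r3 and with only the compared libraries in the fit, where no gene passed. The NES call was also lost without r2, which leaves a single P9 library.

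Of 10 neuronal and neural tube maturation genes, none rose in the 7 whole-culture comparisons. Lower at P2 and P8 against t0 was 1, OLIG2 (-1.91, SE 0.46, FDR 0.0017, and -3.39, SE 0.49, FDR 5.2e-06). Of all genes, 6.94% passed as lower at P2 and 7.75% at P8. PAX6, which marks the maturing neural tube, was at 46.71, 101.5 and 23.01 normalized counts at t0, at 281.2 in r1 at 36 h and at or under 4.575 in r2 and r3 from P4 on. With r1 included, PAX6 averaged 9.621 over the P5 fraction libraries and 3.218 over those of P8. NEUROG2, a proneural gene, was at 0 in all t0 libraries and at 1174, 864.7 and 664 in P4 r1, r2 and r3, and it did not pass P5 against P2. Of the relatives and noncoding neighbours of the members, POU3F4, SOX2-OT and SOX21-AS1 could be tested and none passed any of the 12 comparisons with a shared block. SOX2-OT, the host of SOX2, was at 183.7 to 196.9 at t0, 21.81 to 43.66 at P2, 122.2 to 145.1 at P7 and 4.599 and 13.2 at P9, but at 332.4 in 36 h r3, where SOX2 was at 267.4. SOX21-AS1 was lower in P5 MES with the culture block (-1.78, SE 0.26, FDR 0.0081).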

How the data were processed

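RNA of 47 libraries was sequenced as single-end polyA RNA-seq. The authors trimmed reads (cutadapt 1.16), aligned them to GRCh38 (STAR 2.5.2b) and estimated expression with RSEM 1.3.0, per the submitters' processing notes and the study's methods. The annotation release and the strand setting are not given in the sources used here. The deposited tables hold expected counts per gene and TPM for each library. Of all expected counts, 9.3% were not whole, and they were rounded for the tests. Gene identifiers were matched to GENCODE release 29 for names and positions (57447 of 58051).

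Normalized counts are rounded counts over TMM size factors scaled to a geometric mean of 1 over the 47 libraries. Genes were tested with edgeR 4.0.16 (quasi-likelihood, Benjamini-Hochberg FDR over all genes tested) in R 4.3.3, with limma 3.58.1 loaded as its base. The 35 whole cultures made up a fit of 21750 genes (biological coefficient of variation 34%) and the 12 fraction libraries a fit of 18885 genes (22.8%), each with the replicate number as a block. The labels tie a number to an experiment that ran through the 12 time points, and the fractions of a number come from the same culture, so the numbers pair the samples. Deviations of same-numbered libraries from their group means correlated with a mean r of 0.65 between the P5 fractions, 0.78 between the P8 fractions, 0.31 between P8 and P5, and -0.01 between 36 h and t0, over 13297 genes. DESeq2 1.42.0 and the other settings were alternatives. The 12 comparisons are the 7 of the whole cultures, the fraction and passage comparisons and their interaction, and each later time point was also compared with t0 and with the time point before it.

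Total counts of 13029491 to 64082859 per library limit what a count of 0 can show, and a floor of 3 reads per library was used, which covers counting error only. No pair of replicates agreed within sampling noise (smallest chi-square per degree of freedom 25.37 over 46 pairs). The edgeR scripts were tested on simulated data. The members and gene lists were chosen with earlier results of these data known. Genes named are the members, the listed genes that passed or that a sentence turns on, and the 5 genes most like a member. PAX6, NEUROG2, SOX10 and SOX2-OT levels were named after their values were seen.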

Additional observations from a re-analysis of the deposited data

How the results depend on the processing

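Of 523 alternative log2 fold changes of members, 480 kept their direction and their side of the thresholds, 14 gained a call, 26 lost it and 3 changed sign. Of 179 alternative counts of members that passed, 147 stayed within 1.5 times the value reported and 32 did not. Without the replicate block, the members that passed were 0 at 36 h against t0, at P8 EPI against P5 EPI and at P8 MES against P5 MES, in place of 1 in each, and 21 in place of 28 over all time points and steps. With only the compared libraries in a fit the same 3 counts were 0, and with all 47 libraries in a fit both passage comparisons of the fractions were 0. Requiring at least 10 counts in every library, which drops SOX3 and POU3F1 from the test, left 0 at 36 h, 1 at P2 and 1 at P8 against t0.

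Leaving out each differentiation in turn gave 0 to 2 members at 36 h against t0, 2 to 4 at P2 against t0, 1 to 3 at P8 against t0, 0 to 1 at P5 against P2, at P9 against P8, at P10 against P8 and at P8 EPI against P5 EPI, 0 to 0 at P8 MES against P5 MES, and 17 to 37 over all time points and steps. DESeq2 called 1 member at P9 against P8 and 1 at P5 MES against EPI, where an FDR under 0.05 also gave 1 and the culture block, chosen after seeing the data, gave 2. Without P1 r1 and P10 r1, chosen after seeing the data, 1 member passed at P9 and 1 at P10 against P8. The SOX2 log2 fold change turned from -0.51 to 0.03 at P8 against t0 without replicate 3 (range -0.82 to 0.03 over the differentiations left out), and from -0.15 to 0.09 without the replicate block and 0.12 without replicate 3 at P8 against P5 (range -0.36 to 0.12). None of these was near a call, and the cause was not tested. By normalized counts in place of TPM the POU3F2 share of POU class III at t0 was 1.387% in place of 0.61%. Of the 5 genes most like each member, 1 to 4 were shared between group means and single libraries. Depth limits SOX14, SOX1 and POU3F3, whose levels were mostly under 100 normalized counts.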
